A study of Mus musculus with 19 samples.

Results

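Complex I of the mitochondrial respiratory chain (NADH:ubiquinone oxidoreductase) was followed through its nuclear-encoded subunit and assembly genes, taken as all protein-coding mouse genes whose symbol begins with Nduf. These were 46 of the 39179 genes listed in the deposited counts. RNA from small blood vessels of the brain (cerebral microvessels) was sequenced in 19 libraries from male C57BL/6 mice bought at 7 weeks of age. The groups were an e-cigarette with nicotine (titled Nic, 3 libraries), a nicotine-free e-cigarette (Nic-free, 4), room air (Room-air, 4), smoke (4) and a further set titled air (4) that carries the same room air label as the Room-air set. By the titles, Room-air was taken as the control of both e-cigarette groups and air as the control of smoke. The labels do not tie either control set to an exposure, give no dose or duration, and do not say whether each library came from its own mouse. The p-values therefore cover the spread among these libraries, which may be technical. Levels are given as CPM, counts per 1000000 assigned counts (M below stands for that number) after TMM scaling over all 19 libraries. A member is called changed where its edgeR quasi-likelihood p, adjusted over all genes tested, was under 0.05.

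Complex I takes electrons from NADH, passes them along iron-sulfur clusters to ubiquinone and pumps protons across the inner mitochondrial membrane. Its matrix arm holds the core subunits that bind NADH and ubiquinone, its membrane arm holds core subunits encoded by mitochondrial DNA, and accessory subunits surround both arms. Assembly factors build the complex and are not part of the finished enzyme. Brain endothelial cells are known for a high content of mitochondria, and neurons depend heavily on respiration.

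The members were 7 core subunits, 10 accessory subunits of the matrix arm, 19 accessory subunits of the membrane arm, 8 assembly factors, and the paralogs Ndufa4 and Ndufa4l2. They lie on 17 chromosomes, and all 46 passed the filter on low counts in each comparison, the lowest count of any member in any library being 47. Per kilobase of exon, the highest mean levels over the 19 libraries were those of Ndufb9 (158 CPM per kb), Ndufa1 (118) and Ndufa13 (109), all accessory subunits. The lowest were those of the assembly factors Ndufaf2 (3.52 CPM per kb) and Ndufaf6 (6.07) and of Ndufab1 (6.63), the mitochondrial acyl carrier protein. Exon length is the union of all annotated exons of a gene, which can exceed any single transcript. The rank of Ndufab1 rests on a union of 6883 bases. Its mean level was 45.7 CPM, against a median of 55.5 CPM over the members. The 7 complex I subunits of the mitochondrial genome are listed at 0 in all 19 libraries and could not be described. Exons of 19 members overlap those of another gene, 17 of them on the opposite strand, and whether the counting used strand is not given in the sources used here, so these counts are uncertain where the neighbour is expressed. They include Ndufa11 (with Vmac), Ndufa13 (Tssk6), Ndufb11 (Rbm10), Ndufa3 (Tfpt), Ndufs6 (Mrpl36), Ndufa2 (Tmco6), Ndufb6 (Smim27), Ndufaf3 (Impdh2) and Ndufa4l2 (Shmt2).

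Promoters were read because most members shifted together between groups. RefSeq windows (GRCm38.p6) of 250 bases before the transcription start were found for 40 of the 46 members. The core of the NRF1 site, GCGCATGC, which binds a known activator of respiratory genes, stood on either strand in the windows of 4 of 40 members (10%), against 692 of all 27025 genes with a window (2.56%). The ETS core CCGGAAG, the kind of site bound by GABP, stood in 5 of 40 (12.5%), against 7.83% of all genes. The YY1 core AAGATGGC was in none of the 40 windows, against 1.83% of all genes, and the TATA box TATAAA was in 4 (10%), against 14.3%. Member windows had a median GC content of 58.2%, against 52.4% over all windows. The 9 windows with an NRF1 or ETS core are given as 30 bases on the strand of the gene, 5′ to 3′, with the core in capitals; where 2 overlapping NRF1 cores lie on opposite strands, the joined run is in capitals. The first 4 hold the NRF1 core and the other 5 the ETS core.
Ndufa11: cctgcactgcGCGCATGCGCgcacgccttg (chr17:56717692-56717721, + strand)
Ndufa6: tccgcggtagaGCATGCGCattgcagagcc (chr15:82354356-82354385, − strand)
Ndufa8: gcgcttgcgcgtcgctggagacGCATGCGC (chr2:36049339-36049368, − strand)
Ndufaf4: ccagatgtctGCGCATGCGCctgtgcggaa (chr4:24897960-24897989, + strand)
Ndufaf1: gcgggaccacaaCCGGAAGcgtggcgaacc (chr2:119662835-119662864, − strand)
Ndufaf8: ccggatgttcacgcgttcgactCCGGAAGa (chr11:120098904-120098933, + strand)
Ndufb6: atcgtccttgttCTTCCGGtcccctcccct (chr4:40279636-40279665, − strand)
Ndufb7: agcctagatgacCCGGAAGacactgaaggg (chr8:83566726-83566755, + strand)
Ndufs3: ccccgcgtccgcCCGGAAGaagagtcactg (chr2:90904731-90904760, − strand)
The same joined run, GCGCATGCGC, stands before Ndufa11, which was lower in Nic than in Nic-free, and before Ndufaf4, the member that was higher there. Windows with the ETS core likewise belong to members that were called lower in that comparison (Ndufaf8, Ndufb6, Ndufb7) and to others that were not called (Ndufaf1, Ndufs3).

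The Nic group had the lowest mean of the 5 groups for 41 of the 46 members, and the air set the highest for 35. Such counts were not made over all genes, of which 4961 of 16557 were called in Nic against air. Summed over the members, CPM was 2045, 1890 and 2402 in the Nic libraries, against 3053, 3222, 3058 and 2962 in the Nic-free libraries and 2821, 2751, 2583 and 2662 in the Room-air libraries. Every Nic library lay below every library of the other e-cigarette group and of Room-air, and Nic replicate 3 was the highest of its group for 36 members. Summed assembly factors had means of 166 ± 6.87 CPM in Nic (SD, n = 3), 171 ± 5.90 in Nic-free and 162 ± 2.14 in Room-air (n = 4 each). In bulk samples, fewer cells of a type and less RNA per cell cannot be told apart.

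**Figure D1:**
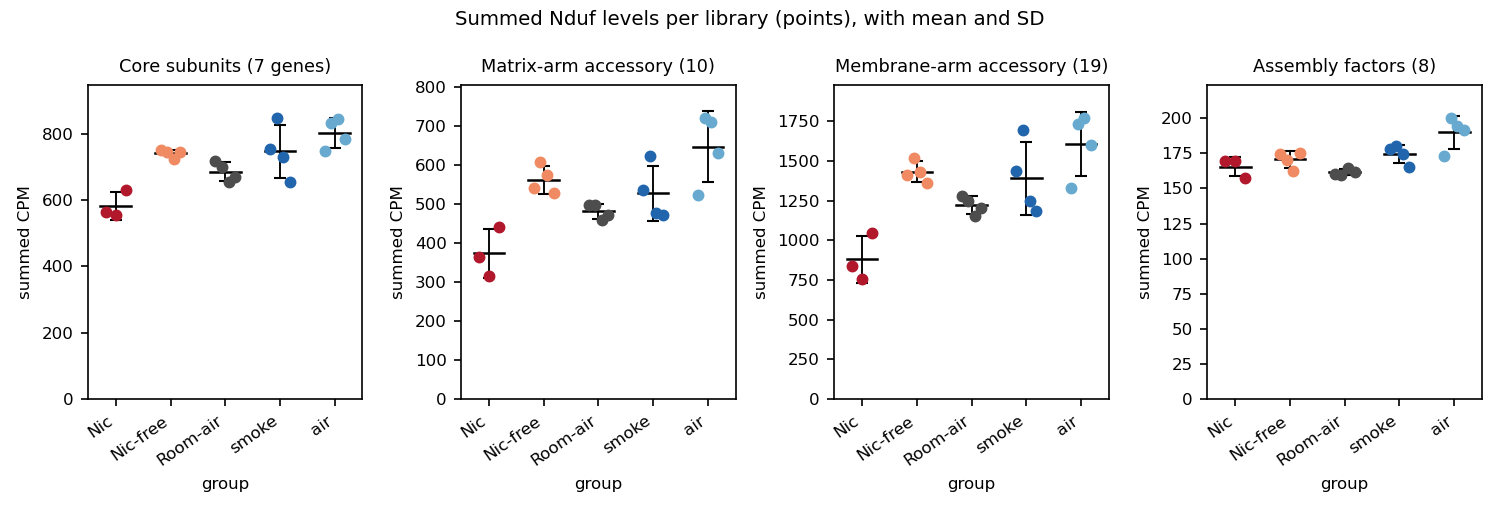
Summed CPM of the members of each role (y axis, CPM) in each library (points) of the 5 groups (x axis), with the mean (bar) and SD (whisker). The Nic libraries sit lowest for core and accessory subunits, while the assembly factors of Nic, with a mean of 166 CPM, overlap those of Nic-free and Room-air.

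Nicotine against nicotine-free e-cigarette asks what nicotine adds to the vapour. Of 46 members 35 were lower in Nic and 1 was higher, against 12.4% of all 17235 genes tested that were lower and 12.4% that were higher. The median log2 fold change of the members was −0.57, against 0.02 over all genes tested. In the same comparison 8 of 15 neuron markers and 65 of 74 cytosolic ribosomal protein genes were lower. The falls among the members covered 5 of 7 core subunits, 9 of 10 matrix-arm accessory subunits, 18 of 19 membrane-arm accessory subunits, 2 of 8 assembly factors and Ndufa4. Nicotine e-cigarette against room air gave 14 members lower and 0 higher, against 2.67% and 1.22% of all genes tested, and 0 neuron markers and 0 ribosomal protein genes were called (0 and 12 at an unadjusted edgeR p under 0.05). Markers of choroid plexus and ependyma had a median log2 fold change of −1.78 in this comparison, with 0 of 9 called. The median log2 fold change of the members there was −0.34, against 0.03 over all genes. Nicotine-free e-cigarette against room air gave 9 members higher and 0 lower, against 11.3% and 10.4% of all genes, with a median log2 fold change of 0.15, against 0.004 over all genes, while 9 of 15 neuron markers and 40 of 74 ribosomal protein genes were higher. These comparisons share libraries (each of the 3 groups enters 2 of them), so their values stand side by side and are not independent of each other.

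The count of 14 in Nic against Room-air depended on single libraries: 0 members and 0 genes in all passed without Room-air replicate 2 or without Nic replicate 1, 5 members without Room-air replicate 1 or without Nic replicate 2, 9 without Room-air replicate 4 and 31 without Nic replicate 3, while the median log2 fold change stayed between −0.44 and −0.27. Of all genes 17.1% passed without Nic replicate 3, 1.90% without Room-air replicate 4, 2.44% without Nic replicate 2 and 0.653% without Room-air replicate 1. Without any one library, 29 to 36 members passed in Nic against Nic-free, against 13.7 to 27.0% of all genes. With DESeq2, 25 members passed in Nic against Room-air (24 lower, 1 higher), against 9.54% of all genes.

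**Figure D2:**
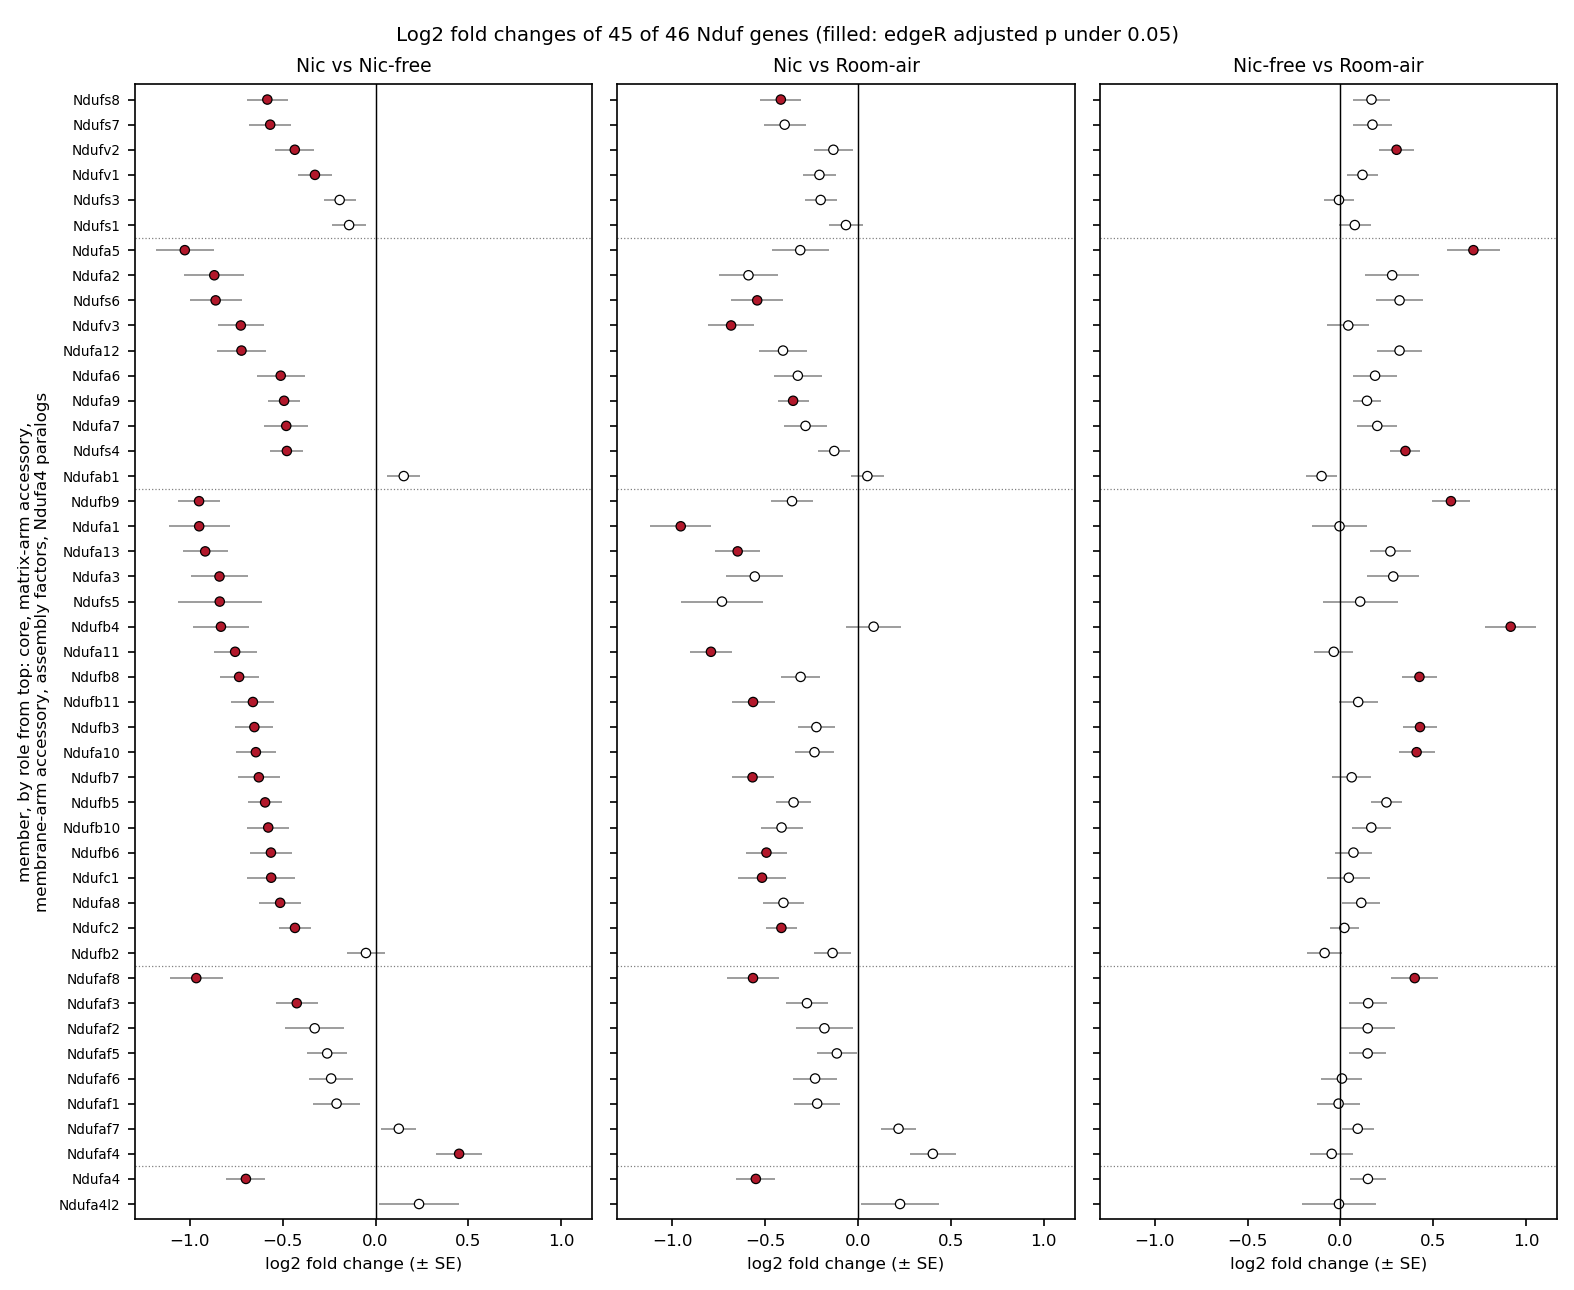
Log2 fold change (x axis, ± SE) of 45 of the 46 members (y axis, ordered by role) in Nic against Nic-free, Nic against Room-air and Nic-free against Room-air, filled where the edgeR adjusted p was under 0.05. In Nic against Nic-free 34 of the points drawn are filled left of 0 and 1, Ndufaf4, right of it; in Nic against Room-air 14 are filled, all left of 0.

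Among the core subunits, Ndufs7 and Ndufs8, which carry iron-sulfur clusters on the way to ubiquinone, fell furthest in Nic against Nic-free. Ndufs8 was at 39, 39.6 and 55.9 CPM in Nic, against 63.5, 71.4, 66.1 and 69.4 CPM in Nic-free and 64, 61, 59.1 and 58.6 CPM in Room-air, and the Nic libraries overlapped neither group. Its log2 fold change was −0.58 ± 0.11 against Nic-free (SE, edgeR adjusted p 0.00218) and −0.42 ± 0.11 against Room-air (adjusted p 0.0499), the only core subunit called in the Room-air comparison and one that stayed past the threshold there in 5 of 18 alternative analyses. For Ndufs7 the log2 fold change was −0.57 ± 0.11 against Nic-free (adjusted p 0.00294) and −0.39 ± 0.11 against Room-air, where it was not called (adjusted p 0.0612). Ndufv1 and Ndufv2, the subunits at the site of NADH oxidation, had −0.33 ± 0.09 and −0.43 ± 0.10 against Nic-free (edgeR adjusted p 0.0175 and 0.00783); the call of Ndufv1 held in 10 of 17 alternative analyses. Against Room-air they had −0.21 ± 0.09 and −0.13 ± 0.10 and were not called.

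Ndufs1, the largest core subunit of the matrix arm, was at 99.9, 110 and 101 CPM in Nic, against 123, 113, 106 and 120 CPM in Nic-free and 121, 102, 116 and 102 CPM in Room-air. Its groups overlapped, with a log2 fold change of −0.14 ± 0.09 against Nic-free (95% interval −0.34 to 0.06) and −0.06 ± 0.09 against Room-air (95% interval −0.26 to 0.13). Ndufs3 had −0.19 ± 0.09 and −0.20 ± 0.09 against the same references and was not called in either. In Nic-free against Room-air, Ndufv2 was the only core subunit called, at 109, 111, 87.9 and 100 CPM in Nic-free, against 93, 75.6, 88 and 77.5 CPM in Room-air (log2 0.30 ± 0.10, edgeR adjusted p 0.0359). Nic-free replicate 3 lay within the Room-air range for Ndufv2, and the call held in 5 of 19 alternative analyses. Log2 fold changes of core subunits not called there were −0.01 ± 0.08 (Ndufs3), 0.08 ± 0.09 (Ndufs1), 0.12 ± 0.08 (Ndufv1), 0.17 ± 0.10 (Ndufs8) and 0.17 ± 0.10 (Ndufs7).

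Of the matrix-arm accessory subunits, Ndufa5, part of the ubiquinone-reducing module, had the largest fall of all members in Nic against Nic-free and the second largest rise in Nic-free against Room-air. It was at 30.6, 23.2 and 41.1 CPM in Nic, against 56.2, 77.2, 65.4 and 59.9 CPM in Nic-free and 42, 39.2, 36.5 and 41.1 CPM in Room-air. The Nic-free libraries all lay above the rest, while Nic and Room-air overlapped. The log2 fold change was −1.03 ± 0.16 in Nic against Nic-free (edgeR adjusted p 0.000698) and 0.72 ± 0.14 in Nic-free against Room-air (adjusted p 0.00372). In Nic against Room-air it was −0.31 ± 0.15 and not called (adjusted p 0.230). Ndufa5 (ENSMUSG00000023089) lies on chromosome 6, 24518666 to 24528013 (GENCODE M21, GRCm38).

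Ndufs4, an accessory subunit whose loss gives mice an encephalopathy used as a model of Leigh syndrome, was at 32, 29.7 and 31.5 CPM in Nic, against 44.8, 46.2, 40.1 and 43.3 CPM in Nic-free and 34.6, 31.3, 35.4 and 36.7 CPM in Room-air. It was higher in Nic-free than in Room-air (log2 0.35 ± 0.08, edgeR adjusted p 0.00816) and lower in Nic than in Nic-free (−0.48 ± 0.09, adjusted p 0.00178), and Nic and Room-air overlapped (−0.13 ± 0.09). Ndufv3, a small subunit of the NADH-oxidising module, was at 30, 27.1 and 39.9 CPM in Nic, against 54.7, 61.4, 51.8 and 47 CPM in Nic-free and 55.4, 53.8, 51.1 and 50.2 CPM in Room-air, with Nic below both groups and these overlapping. The log2 fold change was −0.68 ± 0.12 in Nic against Room-air (adjusted p 0.0197) and 0.04 ± 0.11 in Nic-free against Room-air (adjusted p 0.821).

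Ndufs6, a zinc-binding subunit, was at 23.8, 19.5 and 33.8 CPM in Nic, against 43.4, 52.7, 47.4 and 44.3 CPM in Nic-free and 37.7, 39.1, 38.6 and 36.5 CPM in Room-air. Ndufa2, a subunit with a thioredoxin-like fold, was at 35.6, 24.8 and 43.7 CPM in Nic, against 55.1, 69.1, 73.5 and 56.7 CPM in Nic-free and 52.9, 59.8, 47.5 and 51.3 CPM in Room-air. For both genes every Nic library lay below every library of the other groups. Against Nic-free the log2 fold change was −0.86 ± 0.14 for Ndufs6 and −0.87 ± 0.16 for Ndufa2 (edgeR adjusted p 0.000936 and 0.00203). Against Room-air it was −0.54 ± 0.14 for Ndufs6 (adjusted p 0.0450) and −0.59 ± 0.16 for Ndufa2, which was not called (adjusted p 0.0544). Ndufa12, Ndufa6, Ndufa9 and Ndufa7 were also lower in Nic than in Nic-free, at −0.72 ± 0.13, −0.51 ± 0.13, −0.49 ± 0.08 and −0.48 ± 0.12, and of these Ndufa9 was called against Room-air (−0.35 ± 0.08). The exception was Ndufab1, the acyl carrier protein of mitochondrial fatty acid synthesis, at 47.8, 48.1 and 47.2 CPM in Nic, against 46.8, 43, 40.8 and 42.6 CPM in Nic-free and 43.9, 50.1, 43.1 and 50 CPM in Room-air. The Nic libraries lay just above those of Nic-free and overlapped Room-air. Its log2 fold change was 0.15 ± 0.09 in Nic against Nic-free (adjusted p 0.233) and 0.05 ± 0.09 in Nic against Room-air, and it was not called.

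Of the membrane-arm accessory subunits, Ndufa1, a small protein needed to build the membrane arm, had the largest fall in Nic against Room-air. It was at 22.1, 21 and 36.6 CPM in Nic, against 55.6, 55.4, 51.3 and 44.3 CPM in Nic-free and 51.7, 59.2, 47.1 and 50.9 CPM in Room-air. The Nic libraries lay below all others, and Nic-free overlapped Room-air. Its log2 fold change was −0.95 ± 0.17 against Nic-free (edgeR adjusted p 0.00146) and −0.95 ± 0.16 against Room-air (adjusted p 0.0197), and it was −0.0048 ± 0.15 in Nic-free against Room-air. Ndufa1 (ENSMUSG00000016427; chromosome X, 37187588 to 37191163) also has the shortest exon length of the members, 419 bases.

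Ndufa11, a subunit near the junction of complex I with complex III in supercomplexes, was at 28.9, 33.5 and 41.1 CPM in Nic, against 64, 58.7, 60 and 52.1 CPM in Nic-free and 63.9, 64.8, 56.7 and 57.2 CPM in Room-air. Ndufa13, also known as GRIM-19, a protein linked to cell death signalling, was at 72.7, 62.1 and 98.2 CPM in Nic, against 145, 154, 154 and 137 CPM in Nic-free and 123, 126, 118 and 126 CPM in Room-air. In both cases the Nic group overlapped neither of the others. Ndufa11 had log2 fold changes of −0.76 ± 0.12 against Nic-free and −0.79 ± 0.12 against Room-air (edgeR adjusted p 0.000687 and 0.0152), and Ndufa13 had −0.92 ± 0.12 and −0.65 ± 0.12 (adjusted p 0.000323 and 0.0215).

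Ndufb11, an X-linked subunit of the distal membrane arm, was at 54.5, 49.3 and 70.4 CPM in Nic, against 97, 101, 92.7 and 78.8 CPM in Nic-free and 88.2, 85.4, 85.4 and 89.4 CPM in Room-air. Ndufb7, which faces the intermembrane space, was at 42.9, 37.7 and 53.8 CPM in Nic, against 68.6, 72.8, 74.5 and 62.6 CPM in Nic-free and 70.3, 71.8, 61.2 and 65.8 CPM in Room-air. Both were lowest in the Nic libraries without overlap, at log2 −0.56 ± 0.12 and −0.57 ± 0.11 against Room-air (edgeR adjusted p 0.0245 and 0.0230) and −0.66 ± 0.12 and −0.63 ± 0.11 against Nic-free. Ndufc1, Ndufb6 and Ndufc2 completed the membrane-arm genes called against Room-air, at −0.52 ± 0.13, −0.49 ± 0.11 and −0.41 ± 0.08, and were at −0.56 ± 0.13, −0.56 ± 0.11 and −0.43 ± 0.08 against Nic-free. Ndufa3 was at 45.7, 33.9 and 57.1 CPM in Nic, against 76.1, 92.6, 90.7 and 68.1 CPM in Nic-free and 72.2, 72.6, 59.8 and 66.7 CPM in Room-air, with Nic below both groups and a log2 fold change of −0.84 ± 0.15 against Nic-free (adjusted p 0.00182) and −0.56 ± 0.15 against Room-air, where it was not called (adjusted p 0.0561).

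A further set of membrane-arm genes had higher levels in Nic-free than in Nic and Room-air. Ndufb4 was at 7.76, 8.47 and 7.98 CPM in Nic, against 13.9, 17.7, 10.7 and 15.8 CPM in Nic-free and 7.50, 8.01, 7.42 and 8.03 CPM in Room-air. Nic-free lay above both other groups, which overlapped each other. Its log2 fold change was 0.92 ± 0.14 in Nic-free against Room-air (edgeR adjusted p 0.000846), −0.83 ± 0.15 in Nic against Nic-free (adjusted p 0.00160) and 0.08 ± 0.15 in Nic against Room-air (95% interval −0.23 to 0.40). Ndufb9, a subunit of the LYR protein family that binds the acyl carrier protein, was at 94.4, 82.4 and 113 CPM in Nic, against 172, 207, 191 and 180 CPM in Nic-free and 131, 132, 110 and 128 CPM in Room-air. The Nic-free libraries lay above those of both other groups. Ndufb9 was higher in Nic-free than in Room-air (0.59 ± 0.10, adjusted p 0.00177) and lower in Nic than in Nic-free (−0.95 ± 0.11, adjusted p 0.000236).

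Ndufb8, a subunit widely used as a protein marker of assembled complex I, was at 62.5, 58.5 and 78.6 CPM in Nic, against 105, 113, 117 and 110 CPM in Nic-free and 90.5, 87.6, 74.9 and 81.3 CPM in Room-air. Ndufb3, a short single-span subunit, was at 34.7, 29.9 and 41.4 CPM in Nic, against 55.2, 59.3, 52.2 and 56.9 CPM in Nic-free and 45, 41.3, 39.2 and 41.9 CPM in Room-air. Ndufa10, a subunit related to nucleoside kinases, was at 67.4, 68.9 and 84.8 CPM in Nic, against 116, 117, 103 and 127 CPM in Nic-free and 101, 83.3, 85.9 and 82.1 CPM in Room-air. For these 3 genes the Nic-free libraries lay above all Room-air and Nic libraries. In Nic-free against Room-air their log2 fold changes were 0.43 ± 0.10, 0.43 ± 0.09 and 0.41 ± 0.10 (edgeR adjusted p 0.00719, 0.00572 and 0.00904), and in Nic against Nic-free −0.73 ± 0.11, −0.65 ± 0.10 and −0.64 ± 0.11. The remaining membrane-arm genes called lower in Nic than in Nic-free were Ndufs5 (−0.84 ± 0.23), Ndufb5 (−0.59 ± 0.09), Ndufb10 (−0.58 ± 0.11) and Ndufa8 (−0.51 ± 0.11). Ndufb2 was the one not called, at 33.7, 35.7 and 44.1 CPM in Nic, against 41.8, 42, 36.6 and 37.7 CPM in Nic-free, with overlapping groups and a log2 fold change of −0.05 ± 0.10 (95% interval −0.27 to 0.16).

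**Figure D3:**
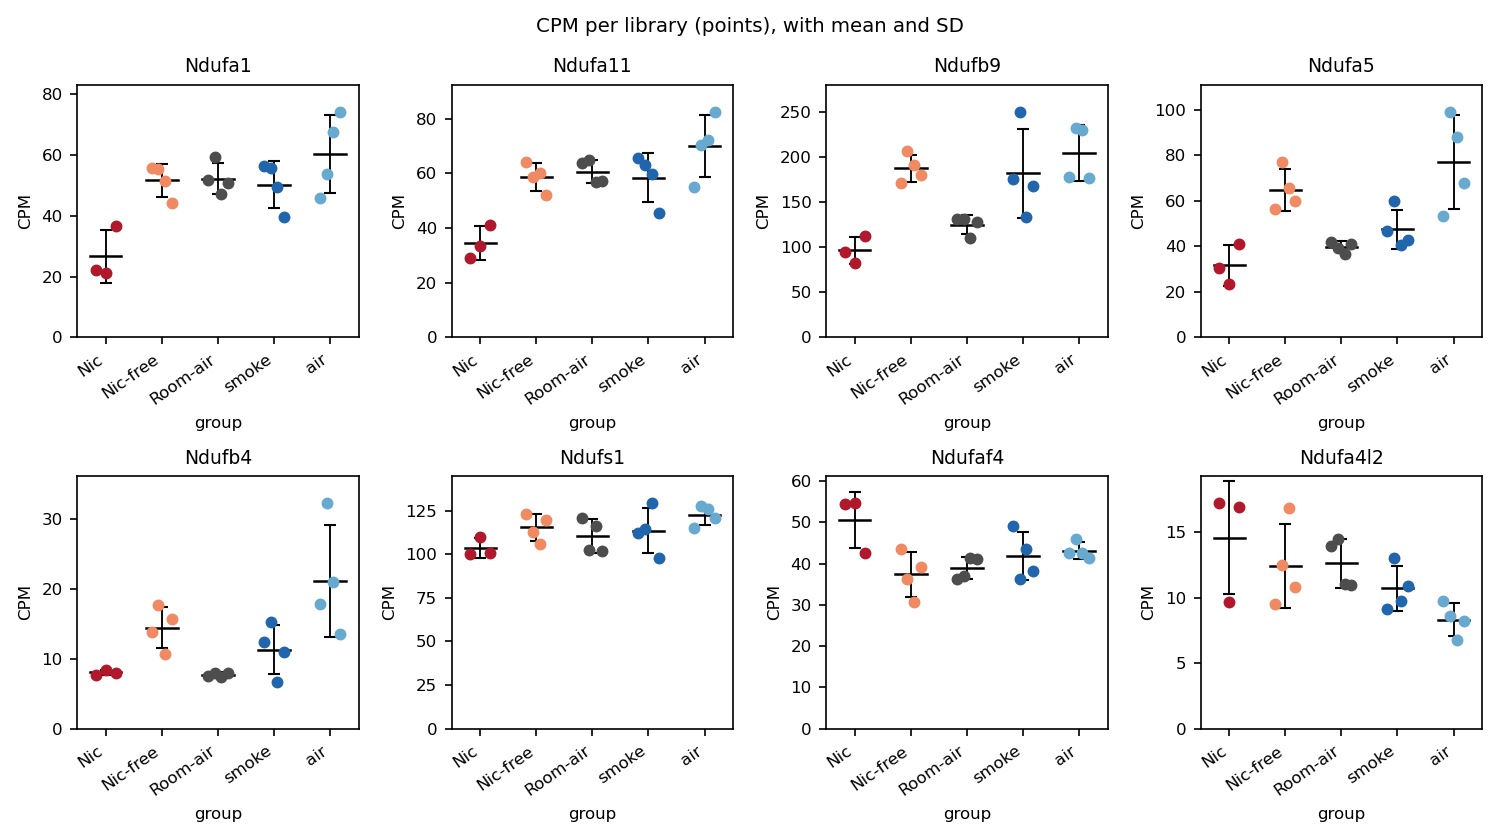
CPM (y axis) of 8 members in each library (points) of the 5 groups (x axis), with the mean (bar) and SD (whisker). Ndufa1 and Ndufa11 are low in Nic and overlap between Nic-free and Room-air. Ndufb9, Ndufa5 and Ndufb4 are higher in Nic-free than in Room-air. Ndufs1 overlaps across groups except between Nic and air, and Ndufaf4 has its highest values, 54.4 and 54.7 CPM, in Nic.

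Of the 8 assembly factors 2 were lower and 1 was higher in Nic against Nic-free, with a median log2 fold change of −0.25. The median was −0.65 for the 29 accessory subunits, and the difference between the roles was not tested. Ndufaf8, a partner of the hydroxylase Ndufaf5, was at 6.73, 7.02 and 9.34 CPM in Nic, against 14.3, 15.5, 16.8 and 13.9 CPM in Nic-free and 10.6, 13.7, 10.4 and 11.5 CPM in Room-air, and the 3 groups did not overlap. It was called in all 3 comparisons, with log2 fold changes of −0.96 ± 0.14 in Nic against Nic-free (edgeR adjusted p 0.000545), −0.57 ± 0.14 in Nic against Room-air (0.0420) and 0.40 ± 0.13 in Nic-free against Room-air (0.0376). The last of these calls held in 6 of 19 alternative analyses and that against Room-air in Nic in 8 of 18. Ndufaf8 (ENSMUSG00000078572) lies on chromosome 11, 120098928 to 120100705.

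Ndufaf4, which works with Ndufaf3 early in building the ubiquinone-reducing module, was the only member higher in Nic than in Nic-free. It was at 54.4, 54.7 and 42.7 CPM in Nic, against 43.6, 36.3, 30.6 and 39.1 CPM in Nic-free and 36.3, 37, 41.4 and 41.1 CPM in Room-air. Nic replicates 1 and 2 lay above all Nic-free libraries and replicate 3 just below the highest of them, and all 3 lay above Room-air. The log2 fold change was 0.45 ± 0.12 against Nic-free (edgeR adjusted p 0.0174) and 0.40 ± 0.12 against Room-air, where it was not called (adjusted p 0.0739). The call against Nic-free held in 13 of 17 alternative analyses. Ndufaf4 (ENSMUSG00000028261) lies on chromosome 4, 24898083 to 24905001. Its partner Ndufaf3 went the other way, at −0.42 ± 0.11 against Nic-free (adjusted p 0.0140) and −0.27 ± 0.11 against Room-air, where it was not called. Ndufaf7, a mitochondrial methyltransferase, was at 0.13 ± 0.09 against Nic-free, and Ndufaf1, Ndufaf2, Ndufaf5 and Ndufaf6 were at −0.21 ± 0.13, −0.33 ± 0.16, −0.26 ± 0.11 and −0.24 ± 0.12; none of these 5 was called in any of the 3 comparisons.

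Ndufa4, long counted as a complex I subunit and now placed in cytochrome c oxidase, was at 88.8, 83.2 and 111 CPM in Nic, against 162, 167, 145 and 142 CPM in Nic-free and 148, 131, 142 and 140 CPM in Room-air. The Nic libraries lay below those of both groups, with log2 fold changes of −0.70 ± 0.10 against Nic-free and −0.55 ± 0.10 against Room-air (edgeR adjusted p 0.000616 and 0.0218), and Ndufa4 was at 0.15 ± 0.10 in Nic-free against Room-air (not called). Its paralog Ndufa4l2, a hypoxia-induced gene that in mouse brain marks pericytes, was at 17.2, 9.67 and 16.9 CPM in Nic, against 9.53, 12.5, 16.9 and 10.8 CPM in Nic-free and 14, 14.5, 11 and 11 CPM in Room-air. The 3 groups overlapped, with log2 fold changes of 0.23 ± 0.22, 0.23 ± 0.21 and −0.01 ± 0.20 in Nic against Nic-free, Nic against Room-air and Nic-free against Room-air.

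Genes that work beside complex I were read from lists outside the Nduf family. Of 12 assembly factors with other names, 4 were lower in Nic than in Nic-free: Dmac1 (−0.44 ± 0.12), Ecsit (−0.43 ± 0.09), Tmem126a (−0.36 ± 0.11) and Dmac2 (−0.27 ± 0.08). None of the 12 was called in Nic against Room-air (1 at an unadjusted edgeR p under 0.05). In Nic-free against Room-air Dmac1, Tmem126a and Ecsit were higher (0.42 ± 0.11, 0.31 ± 0.10 and 0.28 ± 0.08) and Tmem126b was lower (−0.36 ± 0.10). Complex II, which feeds ubiquinone from succinate and has no subunit encoded by mitochondrial DNA, had 6 of 8 subunit and assembly genes lower in Nic than in Nic-free, among them Sdhc (−0.61 ± 0.11) and Sdhb (−0.58 ± 0.08). In Nic against Room-air 3 of the 8 were lower, Sdhc (−0.63 ± 0.11), Sdhd (−0.46 ± 0.09) and Sdha (−0.40 ± 0.10). Of 17 genes of mitochondrial content and biogenesis, 6 were lower in Nic than in Nic-free, such as the import receptor Tomm20 (−0.49 ± 0.09) and citrate synthase Cs (−0.45 ± 0.11), and Gabpa, a subunit of the ETS factor GABP, was higher (0.58 ± 0.11). None of these 17 was called in Nic against Room-air (7 at an unadjusted p under 0.05).

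Markers of other cells moved with some of these differences and not with others. All 15 endothelial markers were detected in every library, and so were all 15 neuron markers, none at 0 in any library, with a summed level of the neuron list above that of the endothelial list in each library. Summed neuron marker CPM was 7294 to 7795 in Nic, 10294 to 11875 in Nic-free and 7321 to 8184 in Room-air. The median log2 fold change of the 15 neuron markers was −0.61 in Nic against Nic-free, 0.01 in Nic against Room-air and 0.45 in Nic-free against Room-air. Summed endothelial marker CPM was 2948 to 5512 in Nic, 2214 to 3341 in Nic-free and 3020 to 4067 in Room-air, with 9 of 15 higher in Nic than in Nic-free, 5 of 15 lower in Nic-free than in Room-air and 0 called in Nic against Room-air (3 at an unadjusted p under 0.05). The median log2 fold change of the endothelial list in Nic against Room-air was 0.37, above 0 for all 15 genes. Among markers of other brain cells, in Nic against Nic-free 6 of 8 astrocyte, 6 of 8 oligodendrocyte and 2 of 8 microglia markers were lower and 4 of 7 pericyte markers were higher, and in Nic-free against Room-air 5 of 8 of each of the first 3 lists were higher. In Nic against Room-air 1 of 8 astrocyte markers was lower and 1 of 7 pericyte markers was higher. No oligodendrocyte or microglia marker was called there (1 and 2 at an unadjusted edgeR p under 0.05). Of the oligodendrocyte markers 7 of 8 were below 0 there (median −0.20). All 7 pericyte and all 8 microglia markers were above 0 (medians 0.35 and 0.13). The 9 markers of choroid plexus and ependyma, none at 0 in any library, summed to 1954 to 6724 CPM in Nic, 881 to 18729 CPM in Nic-free and 17105 to 24657 CPM in Room-air, so that every Nic library lay below every Room-air library. Their median log2 fold change was −1.78 in Nic against Room-air (8 of 9 below 0, 0 called, 4 at an unadjusted edgeR p under 0.05), −1.43 in Nic-free against Room-air (9 of 9 below 0, 2 called lower) and −0.09 in Nic against Nic-free (0 called, 0 at an unadjusted p under 0.05). Their part in the lower member levels of Nic against Room-air was not tested. The 74 ribosomal protein genes had a median of −0.24 in Nic against Room-air and 0.39 in Nic-free against Room-air. With the mean level of the neuron markers of each library as a covariate, 0 members were called in Nic against Nic-free (4 genes in all, median of the members −0.49), 0 in Nic-free against Room-air (30 genes in all, median 0.11) and 9 in Nic against Room-air (434 genes in all, median −0.33). The share of reads assigned to no gene was 33.0 to 38.4% in Nic, 38.9 to 45.2% in Nic-free and 28.7 to 33.4% in Room-air. Total counts were 21.8 to 28.4 M in Nic, 15.2 to 19.1 M in Nic-free and 25.3 to 30.2 M in Room-air. They were 9.76 to 13.5 M in air and 7.94 to 12.6 M in smoke. Every Nic-free library had fewer counts than every Nic and Room-air library, and every air library fewer than every Room-air library. The part of that share or of the total counts in the differences was not tested.

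Exon length also moved with the fold changes. The members' exon lengths ran from 419 to 8086 bases, with medians of 2178 for core subunits, 1251 for accessory subunits and 1802 for assembly factors. Across the 46 members, which share the same libraries, log10 exon length and log2 fold change had a Pearson r of 0.55 both in Nic against Nic-free and in Nic against Room-air, and of −0.17 in Nic-free against Room-air; across the 17025 genes with a length it was 0.20, 0.08 and −0.13. In Nic against Nic-free the 10 members under 1000 bases had a median log2 fold change of −0.75, against −0.16 for all 1024 genes of that length, and the 12 members of 2000 to 4000 bases had −0.38, against −0.05 for all 5237. In Nic against Room-air the medians for the same lengths were −0.55 against 0.05, and −0.20 against −0.01. With an offset that removes each library's dependence on exon length, 30 members were called in Nic against Nic-free (median −0.35), 13 in Nic against Room-air (median −0.28) and 7 in Nic-free against Room-air (median 0.06, against 0.15 without the offset). In the same order, 21.8%, 3.41% and 20.7% of all genes were called with the offset.

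**Figure D4:**
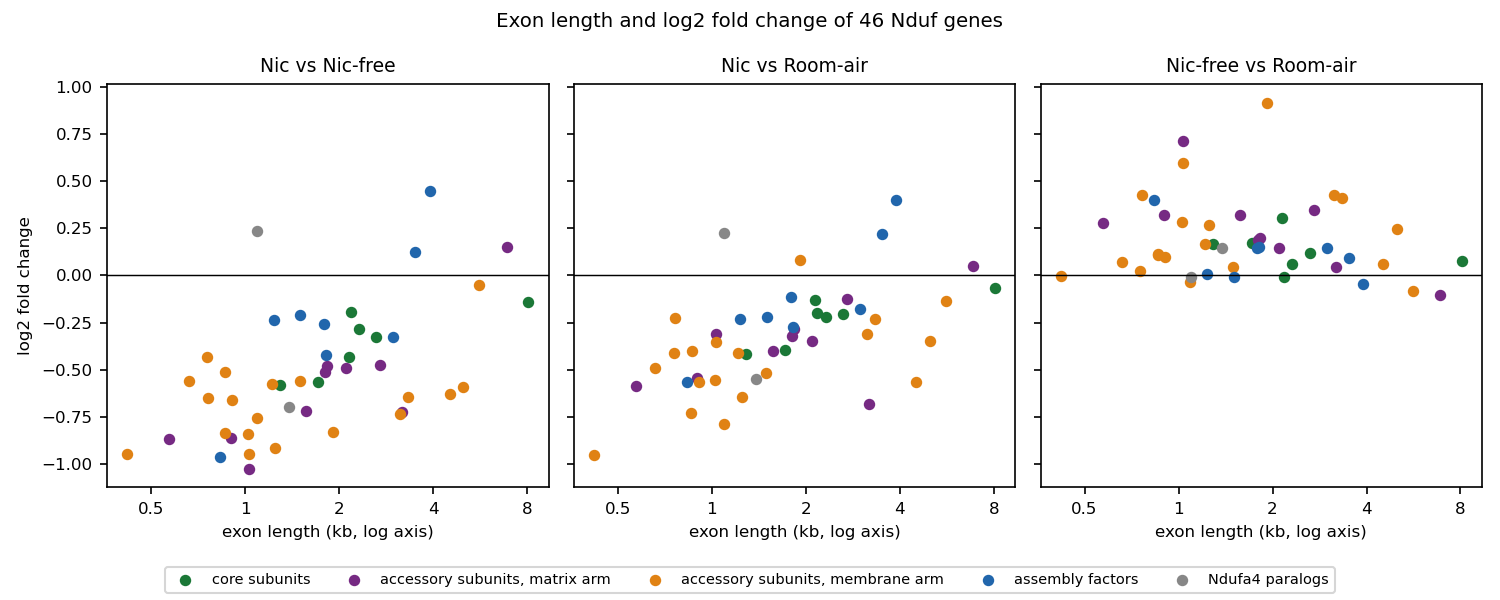
Exon length (x axis, kb, log axis) and log2 fold change (y axis) of the 46 members, coloured by role, in Nic against Nic-free, Nic against Room-air and Nic-free against Room-air. In both comparisons of Nic the shorter genes tend to lie lower (Pearson r 0.55 across members), with medians of −0.75 and −0.55 for the 10 members under 1000 bases, and in Nic-free against Room-air r is −0.17.

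Smoke against air asks whether smoke moved these genes. No member was called by edgeR, against 1.08% of all 15232 genes called higher and 0.519% lower. At an unadjusted edgeR p under 0.05 there were 12 of 46 members, against 2939 of all 15232 genes. With DESeq2 4 members were lower, against 6.07% of all genes called in either direction. Of the 46 members 41 had a log2 fold change below 0, against 7082 of all 15232 genes. The median of the members was −0.19, against 0.02 over all genes. The endothelial markers were above 0 for 15 of 15 genes in this comparison, with a median of 0.59. With their mean level as a covariate the median of the members was 0.075. In that fit 1 member had an unadjusted edgeR p under 0.05 and 0 were called, against 1064 and 0 of all 15232 genes. Summed over the members, CPM was 3048, 3500, 2776 and 2602 in the smoke libraries, against 2909, 3663, 3706 and 3395 in the air libraries, and the groups overlapped. Ndufb4, with the largest difference, was at 12.4, 15.3, 6.72 and 11 CPM in smoke, against 17.9, 32.4, 21 and 13.6 CPM in air (log2 −0.91 ± 0.30, edgeR adjusted p 0.140), and Ndufa5 at 46.8, 59.7, 40.7 and 42.7 CPM in smoke, against 53.2, 99.2, 88 and 68 CPM in air (log2 −0.69 ± 0.19, adjusted p 0.0923); the groups overlapped for both.

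Among core subunits in smoke against air, Ndufv2 had −0.38 ± 0.11 (95% interval −0.62 to −0.13), Ndufs7 −0.13 ± 0.13 (−0.42 to 0.15), Ndufs8 −0.11 ± 0.14 (−0.42 to 0.19) and Ndufs1 −0.10 ± 0.10 (−0.31 to 0.12). Ndufs3 had 0.04 ± 0.10 and Ndufv1 0.05 ± 0.10. The groups did not overlap for Ndufv2, at 95.7, 99.1, 89.7 and 79.4 CPM in smoke, against 104, 140, 122 and 108 CPM in air (edgeR adjusted p 0.101). Ndufa4 had −0.31 ± 0.12 (adjusted p 0.196) and Ndufa4l2 0.36 ± 0.16 (adjusted p 0.229), both uncalled. Of the other lists, none of the 12 further assembly factors (3 at an unadjusted p under 0.05), the 8 complex II genes (0) and the 17 genes of mitochondrial content (3) was called. Of 15 endothelial markers 3 were higher in smoke than in air, and 1 of 15 neuron markers was lower. Summed endothelial marker CPM was 2795 to 3554 in smoke, against 1495 to 2606 in air, and summed neuron marker CPM 6642 to 11885 in smoke, against 9171 to 11948 in air.

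Whether the smoke effect differed from the nicotine e-cigarette effect was tested as smoke minus air less Nic minus Room-air, comparisons that share no library. No member was called by edgeR, against 2.78% of all 16557 genes called higher and 2.80% lower. At an unadjusted edgeR p under 0.05 there were 12 of 46 members, against 4184 of all 16557 genes. DESeq2 called 2 members, against 10.6% of all genes. The median difference of the members was 0.20 on the log2 scale, against 0.02 over all genes. It was 0.06 without smoke replicate 2, 0.10 without Nic replicate 2, 0.12 without air replicate 1 and 0.32 without Nic replicate 3. The largest were −0.98 ± 0.33 for Ndufb4 (edgeR adjusted p 0.0811), 0.82 ± 0.31 for Ndufs5 (0.107) and 0.71 ± 0.25 for Ndufa1 (0.0898). Among the core subunits, values ran from −0.23 (Ndufv2) to 0.32 (Ndufs8), with Ndufs1 at −0.02, Ndufs3 at 0.26, Ndufv1 at 0.27 and Ndufs7 at 0.27, and Ndufa4 and Ndufa4l2 at 0.25 and 0.15. Without Nic replicate 3, 8 members were called (7 higher, 1 lower), against 14.8% of all 16741 genes. The complex II genes Sdhc (0.61 ± 0.16) and Sdha (0.57 ± 0.16) were called.

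The 2 sets labelled room air differed from each other in these genes. In air against Room-air 17 members were higher and 1 was lower, against 10.7% and 12.0% of all 16557 genes tested, with a median log2 fold change of 0.30, against −0.003 over all genes. The rises covered 1 of 7 core subunits, 5 of 10 matrix-arm and 9 of 19 membrane-arm accessory subunits and 2 of 8 assembly factors. Ndufb4 was at 17.9, 32.4, 21 and 13.6 CPM in air, against 7.50, 8.01, 7.42 and 8.03 CPM in Room-air, without overlap (log2 1.45 ± 0.23, edgeR adjusted p 0.000402). Ndufa5 was at 53.2, 99.2, 88 and 68 CPM in air, against 42, 39.2, 36.5 and 41.1 CPM in Room-air, again without overlap (0.96 ± 0.18, adjusted p 0.00155). Both genes were also called higher in Nic-free than in Room-air, a comparison that shares the Room-air libraries.

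Ndufa12, a matrix-arm subunit related to the assembly factor Ndufaf2, was at 46.4, 70.1, 65.6 and 54.5 CPM in air, against 36.8, 33.8, 34.4 and 31.2 CPM in Room-air (0.80 ± 0.15, edgeR adjusted p 0.00119). Ndufb9 was at 178, 232, 230 and 177 CPM in air, against 131, 132, 110 and 128 CPM in Room-air (0.71 ± 0.15), and Ndufb8 at 109, 136, 143 and 114 CPM in air, against 90.5, 87.6, 74.9 and 81.3 CPM in Room-air (0.59 ± 0.13). For these 3 genes the air libraries all lay above the Room-air libraries. Ndufs6 was at 45.7, 62.9, 63.2 and 56.6 CPM in air, against 37.7, 39.1, 38.6 and 36.5 CPM in Room-air (0.59 ± 0.14), and Ndufa6, an LYR protein of the matrix arm, at 63, 90.9, 86.6 and 75.5 CPM in air, against 57.8, 60.2, 51.7 and 49.6 CPM in Room-air (0.53 ± 0.13), both without overlap. Ndufaf8 was at 13.3, 18.9, 19.8 and 21.7 CPM in air, against 10.6, 13.7, 10.4 and 11.5 CPM in Room-air (0.67 ± 0.17), where air replicate 1 fell below Room-air replicate 2. The other members called higher were Ndufv2 (0.51 ± 0.10), Ndufa13 (0.48 ± 0.14), Ndufb3 (0.47 ± 0.12), Ndufs4 (0.44 ± 0.09), Ndufc1 (0.44 ± 0.15), Ndufb10 (0.42 ± 0.12), Ndufa10 (0.40 ± 0.11), Ndufb5 (0.34 ± 0.12) and Ndufaf5 (0.31 ± 0.11). Uncalled core subunits had 0.32 ± 0.13 (Ndufs8), 0.25 ± 0.12 (Ndufs7), 0.15 ± 0.09 (Ndufs1), 0.14 ± 0.09 (Ndufv1) and −0.001 ± 0.09 (Ndufs3), and Ndufa4 had 0.20 ± 0.11.

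The member that was lower in air was Ndufa4l2 (ENSMUSG00000040280; chromosome 10, 127514967 to 127517154), at 9.78, 8.61, 6.80 and 8.20 CPM in air, against 14, 14.5, 11 and 11 CPM in Room-air. No air library reached a Room-air library, and the log2 fold change was −0.60 ± 0.20 (edgeR adjusted p 0.0326), past the threshold in 9 of 17 alternative analyses. Of 7 pericyte markers 5 were lower in air than in Room-air, with a summed level of 599 to 999 CPM in air, against 1166 to 1425 CPM in Room-air and none at 0 in any library; their part in the fall of Ndufa4l2 was not tested. Of 15 endothelial markers 10 were lower in air, of 15 neuron markers 4 were higher, and of 74 ribosomal protein genes 46 were higher. Of 8 oligodendrocyte markers 4 were higher (7 above 0, 1 below, median 0.50). They summed to 23408 to 32278 CPM in air, against 12587 to 15202 CPM in Room-air. All 9 choroid plexus and ependyma markers were below 0 (median −1.08, 0 called). Of 8 astrocyte and 8 microglia markers, 1 of each list was higher and 1 was lower. With the neuron markers as a covariate 1 member was called (1215 genes in all) and with the endothelial markers 6 (654 genes in all), while the medians were 0.21 and 0.31. Without air replicate 1, 27 members were called (26 higher, 1 lower). Among the other lists, 6 of 12 further assembly factors were higher in air, such as Tmem126a (0.41 ± 0.12) and Tmem70 (0.40 ± 0.11), 3 of 8 complex II genes, such as Sdhb (0.43 ± 0.10), and 3 of 17 genes of mitochondrial content.

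The choice of control changed the direction of the median for Nic-free and not for Nic. Set against air, the Nic-free group had 0 members called and a median log2 fold change of −0.17. Of all 16557 genes tested, 699 were called there in either direction. Nic against air had 39 members lower and 1 higher, with a median of −0.71, while 4961 of all 16557 genes were called. Set against Room-air, smoke had 2 of 46 members higher and a median of 0.11, while 1027 of all 16557 genes were called. Which air set is the control of which exposure is given by the titles alone, and the air set and its difference from Room-air cannot be told apart from whatever else separated the 2 sets.

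**Figure D5:**
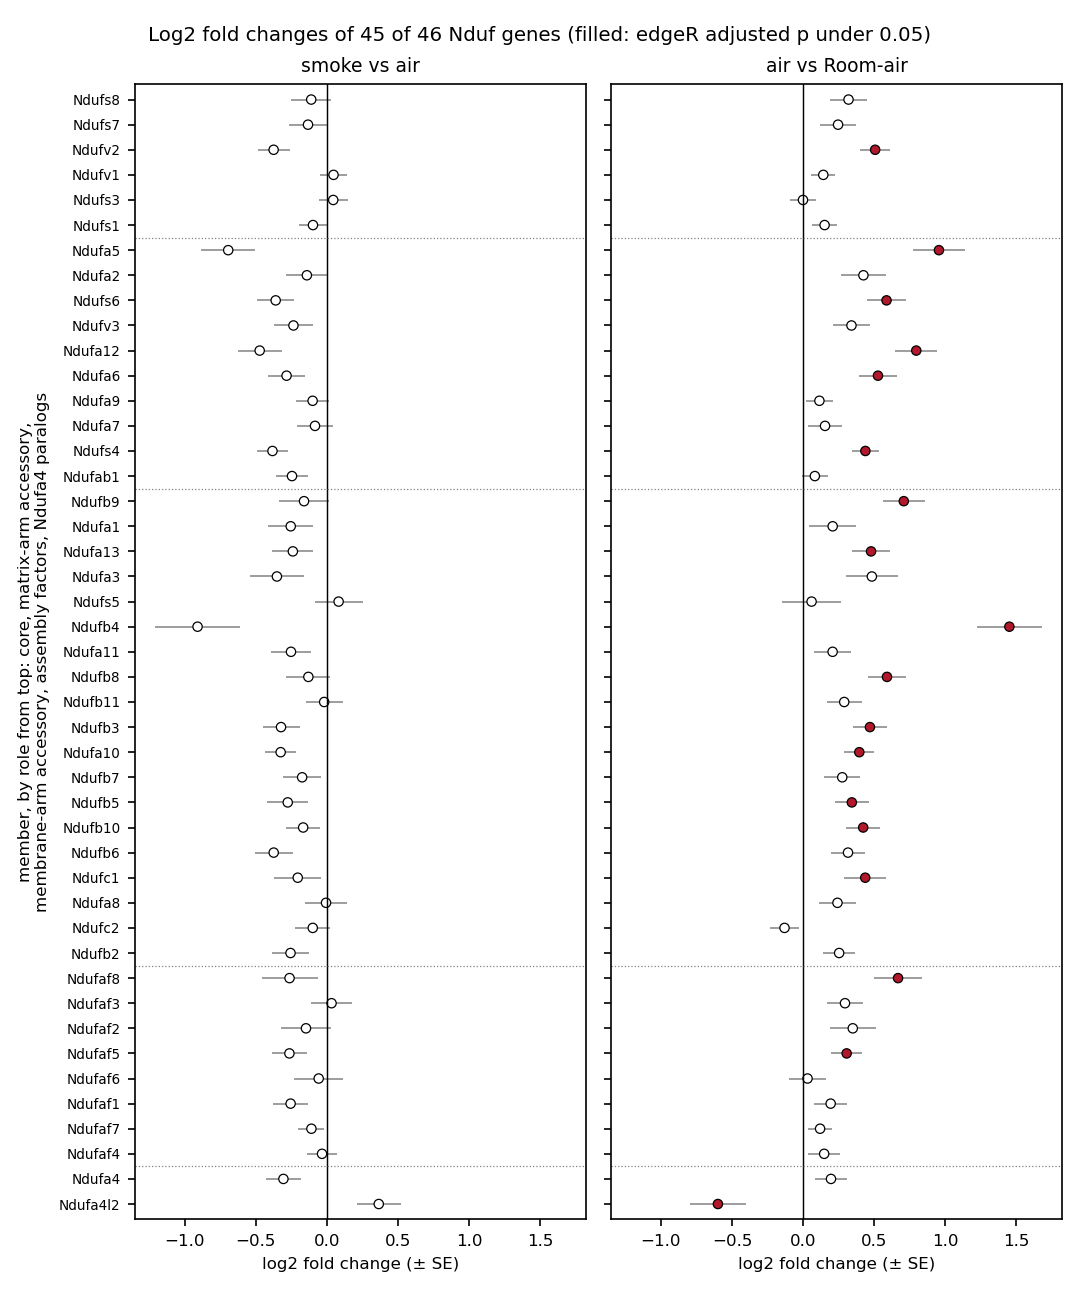
Log2 fold change (x axis, ± SE) of 45 of the 46 members (y axis, ordered by role as in the plot of the e-cigarette comparisons) in smoke against air and in air against Room-air, filled where the edgeR adjusted p was under 0.05. No point is filled in smoke against air; in air against Room-air 17 are filled right of 0 and 1, Ndufa4l2, left of it.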

How the data were processed

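The deposited values are raw counts of reads per Ensembl gene in 19 libraries of polyadenylated RNA, sequenced as single-end, strand-specific reads of 80 nt per the labels. Per the submitters' processing notes, the authors used STAR, HTSeq and the mouse build mm10; versions and the strand setting are not given in the sources used here. Names, positions and exon lengths (the union of all annotated exons of a gene) were taken from GENCODE M21 and promoters from RefSeq (GRCm38.p6). The 5 summary lines of each file, which include the no-feature reads, were kept out of totals and tests.

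Counts were tested with edgeR 4.0.16 in R 4.3.3 (TMM, filterByExpr, estimateDisp, glmQLFit with robust estimation, two-sided glmQLFTest); p-values were adjusted by Benjamini and Hochberg over every gene tested, with a threshold of 0.05. The Nic, Nic-free and Room-air libraries shared 1 fit, smoke and air another, and all 19 libraries were fitted for air against Room-air and for the smoke effect minus the Nic effect. The SE of a log2 fold change is its size divided by the square root of the F statistic, and 95% intervals use the matching t quantile. The fits were tested on simulated counts with known changes.

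Alternatives were DESeq2 1.42.0, RLE factors, library totals alone, no filter, a replicate block, an exon-length offset (lowess span 0.3), neuron or endothelial marker levels as a covariate, the other air set as control, only the groups compared or all libraries in the fit, and leaving out each library. The members and lists were chosen with earlier results of these data known. In each comparison the 8 called members with the largest fold changes per direction were given in every library, other called members by fold change, and the core subunits, Ndufa4 and Ndufa4l2 throughout (1 member is counted but its own values are not reported here); Ndufab1, Ndufb2 and Ndufs8 in Nic were given in full after their values were seen.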

Additional observations from a re-analysis of the deposited data

Results flagged for a closer look

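In 3 of 120 groups of 4 libraries, 1 library stood apart from the other 3 by a gap above Dixon's critical value; chance gives about 1 in 20 such groups. Ndufa3 was at 67.7 CPM in air replicate 1, against about 104 CPM in each of the other 3 air libraries. Ndufaf8 was at 22 CPM in smoke replicate 2, against 12.7 to 14.0 CPM in the other smoke libraries. Ndufs7 was at 84 CPM in Nic-free replicate 3, against 72.1 to 74.0 CPM in the other Nic-free libraries.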

How the results depend on the processing

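Of 114 recomputed counts of called members 85 stayed within 1.5 times the reported count. In Nic-free against Room-air (9 called), 0 passed with the neuron covariate, 16 with the endothelial covariate and 0 with air as the control, where the median became −0.17 and 8 of the 9 called members turned to the other sign, at −0.55 (Ndufb4), −0.28 (Ndufaf8), −0.25 (Ndufa5), −0.22 (Ndufv2), −0.18 (Ndufb8), −0.12 (Ndufb9), −0.10 (Ndufs4) and −0.053 (Ndufb3). Of all genes 21.8% were called in the reported fit and 0.174% with the neuron covariate. The share was 18.7% with the endothelial covariate and 4.22% with air as the control. In Nic against Room-air (14 called), 8 passed with the replicate block, 9 with the exon-length offset and replicate block, 9 with the neuron covariate, 28 with the endothelial covariate, 25 with DESeq2, 40 with air as the control, and 0 to 31 when a library was left out. In Nic against Nic-free (36 called), 0 passed with the neuron covariate and 29 to 36 when a library was left out. Of all genes 24.8% were called in the reported fit, 0.0232% with the neuron covariate and 13.7 to 27.0% without a library. In smoke against air (0 called), 4 passed with DESeq2, 4 with all libraries fitted, 2 with Room-air as the control and 0 to 1 when a library was left out (1 without air replicate 1), and the median became 0.11 with Room-air as the control and 0.075 with the endothelial covariate. Of all genes 1.60% were called in the reported fit, 6.07% with DESeq2 and 3.13% with all libraries fitted. The share was 6.20% with Room-air as the control and 1.26% without air replicate 1. In air against Room-air (18 called), 1 passed with the neuron covariate, 6 with the endothelial covariate and 12 to 27 when a library was left out. For the smoke effect minus the Nic effect (0 called), 2 passed with the exon-length offset, 2 with that offset and the replicate block, 2 with the neuron covariate, 2 with DESeq2 and 0 to 8 when a library was left out. Of all genes 5.59% were called in the reported fit, 5.73% with the offset and 4.86% with the offset and block. The share was 10.8% with the neuron covariate, 10.6% with DESeq2 and 0.0776 to 14.8% when a library was left out. The cause of each change was not tested. No label says that the replicate numbers pair the libraries. Same-numbered libraries of the groups compared directly correlated at −0.36 to 0.34 in their deviations from the group means. With 3 or 4 such pairs per comparison, these values cannot decide whether libraries were paired. Apart from the count of 8 in Nic against Room-air, the replicate block alone moved no count by over 1.5 times. Nic has 3 libraries, and smoke and air have the lowest depths. The lowest count of any member was 47 reads, for the assembly factor Ndufaf6, which limits the precision for that gene.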
